A study of Mus musculus with 6 samples.

Results

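Immediate-early genes around *Egr1* were examined by RNA-seq in Ang-II-infused hearts of 2 genotypes, Pontin cTG and WT. The 10 members are *Egr1*, *Egr2*, *Egr3*, *Ier2*, *Ier5*, *Fos*, *Fosb*, *Jun*, *Junb* and *Nr4a1*, each matched by its gene name to 1 row of a count table of 56748 genes. *Egr1* was selected on its small p-value in the contrast of the 2 genotypes, and the others were named around it with results of these data known. The difference between Pontin cTG and WT hearts is therefore given for these genes as a description.

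Pontin, encoded by *Ruvbl1*, is an AAA+ ATPase found in chromatin remodelling complexes. The Pontin cTG transgene is a human Pontin cDNA with a flag tag under the mouse α-MHC promoter, which is active in cardiomyocytes, on a C57Bl/6 background, and the WT controls are littermates without it. All 6 mice were male, 10 weeks old when treatment began, and received Ang-II at 1.5 mg/kg BW/day by mini-osmotic pump for 14 days, so both genotypes carry the treatment and no untreated heart was analysed here. Each group holds 3 biological replicates, and each library is whole heart tissue, in which more cells with a transcript and more transcript per cell cannot be told apart.

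Immediate-early genes are transcribed within minutes of a stimulus without new protein synthesis, chiefly through serum response factor with its ELK partners and through CREB. Most encode transcription factors that set off later waves of transcription, and their mRNAs are as a rule short-lived. In the heart they respond to Ang-II, stretch, ischaemia and adrenergic drive.

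The WT libraries held 12436822 to 13194038 counts and the Pontin cTG libraries 14584102 to 16888124, of which 23.8% to 26.7% were mitochondrial. One library stood apart: on the first principal component, which held 48.6% of the variance, Pontin cTG replicate 2 lay at 50.9 and the other 5 between -23.1 and 16.2. *Ruvbl1* had normalised counts of 216, 221 and 217 in WT and of 250, 250 and 240 in Pontin cTG hearts (log2 fold change 0.18, SE 0.12), but transcripts of the human transgene may not be counted under a mouse gene, so the labels are checked only in part. Summed cardiomyocyte markers were the most abundant of the marker lists, at 604600 to 718200 normalised counts in WT and 588300 to 667000 in the transgenic hearts, and each of the 6 markers was detected.

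Promoter windows were searched for short motifs, and none was matched in every member. RefSeq windows (GRCm38.p6, from 250 bases before to 50 bases after each start) were found for 7 of the 10 members, namely *Egr2*, *Fos*, *Fosb*, *Ier5*, *Jun*, *Junb* and *Nr4a1*. *Egr1*, *Egr3* and *Ier2* were not matched. The core of the CREB site, TGACG on either strand, lay in 7 of the 11 windows of these genes, which belong to *Egr2*, *Fos*, *Fosb*, *Junb* and *Nr4a1*, and in 20.8% of all 32851 windows. A CArG box, the site of serum response factor, was matched in 4 of the 11, all of *Egr2*, against 1.63% of all windows. Counted by gene, TGACG was matched in 5 of the 7 and the CArG box in 1, whereas the shares of all windows are not per gene. The EGR site GCGNGGGCG lay in 2 of the 11, 1 each of *Fosb* and *Nr4a1* (5.55% of all windows), and the full palindrome TGACGTCA, which contains TGACG, and the AP-1 site TGANTCA lay in 0 of the 11 (1.79% and 7.81% of all windows). A match describes letters in a window and is not a site of binding, and no match says only that these letters are not there.

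Windows of 4 members with such a match, chosen with their counts known, are shown 5′ to 3′ on the strand of the gene. Capitals mark TGACG, or CGTCA where it is read on the other strand, in *Fos* (chr12:85473640-85473939, plus strand), *Junb* (chr8:84978699-84978998, minus strand) and *Nr4a1* (chr15:101266596-101266895, plus strand), and the CArG box in *Egr2* (chr10:67537316-67537615, plus strand).
Fos: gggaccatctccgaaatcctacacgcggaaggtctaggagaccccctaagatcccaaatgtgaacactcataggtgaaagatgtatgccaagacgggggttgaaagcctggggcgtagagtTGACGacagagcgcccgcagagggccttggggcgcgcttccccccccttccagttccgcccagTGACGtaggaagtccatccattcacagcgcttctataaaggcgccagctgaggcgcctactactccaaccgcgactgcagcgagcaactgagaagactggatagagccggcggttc
Junb: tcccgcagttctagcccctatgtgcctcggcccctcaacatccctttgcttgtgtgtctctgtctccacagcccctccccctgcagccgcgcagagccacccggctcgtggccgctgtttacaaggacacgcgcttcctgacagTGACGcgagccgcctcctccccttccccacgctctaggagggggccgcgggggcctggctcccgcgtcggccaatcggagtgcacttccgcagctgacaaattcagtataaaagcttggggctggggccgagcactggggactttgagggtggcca
Nr4a1: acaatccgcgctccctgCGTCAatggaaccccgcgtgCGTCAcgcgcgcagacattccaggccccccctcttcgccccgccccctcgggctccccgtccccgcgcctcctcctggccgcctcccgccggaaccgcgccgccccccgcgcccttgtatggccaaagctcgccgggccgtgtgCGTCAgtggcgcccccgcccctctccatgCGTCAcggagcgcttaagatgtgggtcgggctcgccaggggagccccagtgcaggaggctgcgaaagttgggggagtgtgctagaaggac
Egr2: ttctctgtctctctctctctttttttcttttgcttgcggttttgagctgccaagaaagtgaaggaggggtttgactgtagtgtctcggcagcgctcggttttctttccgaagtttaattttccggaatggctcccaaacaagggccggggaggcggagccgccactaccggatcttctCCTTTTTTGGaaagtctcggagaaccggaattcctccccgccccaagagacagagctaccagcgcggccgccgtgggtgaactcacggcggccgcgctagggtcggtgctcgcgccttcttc
Counted in bases from the start, the matches begin at -129 and -66 in *Fos*, at -106 in *Junb* and at -233, -213, -69 and -40 in *Nr4a1*. The CArG box of *Egr2* begins at -72.

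The members have few exons in the GENCODE M21 annotation. *Ier2*, *Ier5*, *Jun* and *Junb* have a single exon, 40% of the members against 7.15% of 21875 protein-coding genes. The median number of exons was 2 in the members and 7 in all protein-coding genes, and *Nr4a1*, with 8 exons, was the member with the most. Their transcripts were not shorter, with a median length of 3077 bases against 2527. The pentamer ATTTA, part of AU-rich elements that mark unstable mRNAs, occurred 2.05 times per kb of 3′ UTR in the members and 1.89 times in all genes. At least 1 copy was found in the 3′ UTR of 90% of the members, *Ier2* being the exception, and of 61.7% of all genes with a 3′ UTR. The longer TTATTTATT was found in the 3′ UTR of *Fos* alone, 10% of the members against 6.92% of all genes with a 3′ UTR.

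*Egr1* (ENSMUSG00000038418, chromosome 18 from 34992876 to 34998037, in GRCm39 coordinates like those of the other members) encodes a zinc-finger transcription factor. Its normalised counts were 218, 229 and 221 in WT and 464, 259 and 478 in Pontin cTG hearts. Values here are counts scaled by edgeR's TMM factors to a common library size. The 3 Pontin cTG libraries were all above the 3 WT libraries, replicate 2 by the least, and the WT hearts differed among themselves by 1.05-fold. Selection on a small p favours both a separation of the groups and close values within a group. The means were 222.7 ± 5.53 and 400.5 ± 122 (SD, n = 3 each), and edgeR's quasi-likelihood fit gave a log2 fold change of 0.85 (SE 0.22). The adjusted p was 0.999 over all 13888 genes tested, and 6 genes had a smaller unadjusted p than that of *Egr1*, which was 0.00427.

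*Egr2* (ENSMUSG00000037868, chromosome 10 from 67371305 to 67378018) encodes a paralogue of EGR1 that is best known for its part in myelination. It had normalised counts of 31.9, 48.2 and 26.8 in WT and 115, 31.7 and 9.53 in Pontin cTG hearts. Pontin cTG replicate 1 was the highest of the 6 libraries and Pontin cTG replicate 3 the lowest, 12.1-fold apart, so the WT values lay inside the Pontin cTG range. The log2 fold change was 0.53 (SE 0.72).

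*Egr3* (ENSMUSG00000033730, chromosome 14 from 70314652 to 70320063), a paralogue known for its part in muscle spindle development, had 73.8, 56.1 and 39.1 normalised counts in WT and 282, 35.1 and 38.1 in Pontin cTG hearts. One heart carried the difference: Pontin cTG replicate 1 was 8.04-fold above the lowest library of its group, and the other 2 Pontin cTG libraries lay below all 3 WT libraries. The log2 fold change of 1.06 (SE 0.77) was the highest of the members tested and also had the largest SE. Without that library it was -0.61, and that of *Egr2* was -0.78. The EGR genes therefore did not share a pattern across hearts, since Pontin cTG replicate 3 was the highest library for *Egr1* and the lowest for *Egr2*.

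**Figure D1:**
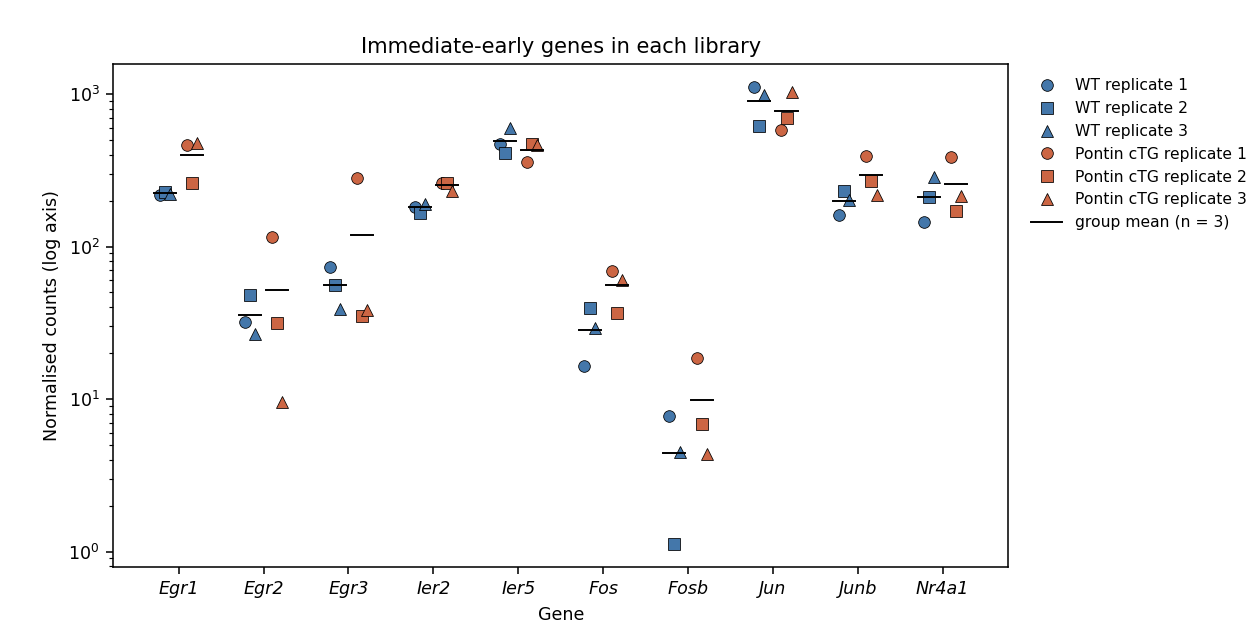
Normalised counts (log axis) of the 10 members in each of the 6 libraries, with WT in blue, Pontin cTG in orange, the marker shape giving the replicate and the line the group mean (n = 3). The groups are separate for *Egr1* and *Ier2*, and Pontin cTG replicate 1 is the highest library for 7 of the 10 genes.

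*Fos* (ENSMUSG00000021250, chromosome 12 from 85520664 to 85524047) encodes c-Fos, which pairs with JUN proteins to form the AP-1 transcription factor. Its normalised counts were 16.5, 39.3 and 29.1 in WT and 69.3, 36.8 and 60.6 in Pontin cTG hearts. The groups overlapped only through WT replicate 2, which was above Pontin cTG replicate 2. The means were 28.3 ± 11.4 and 55.6 ± 16.8 (SD, n = 3 each), with a log2 fold change of 0.97 (SE 0.38).

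*Fosb* (ENSMUSG00000003545, chromosome 7 from 19036621 to 19043976), which encodes another FOS-family partner of JUN, was close to the limit of detection. It had 7, 1 and 4 raw counts in WT and 19, 8 and 5 in Pontin cTG hearts and did not pass the filter on low counts. Pontin cTG replicate 1 again held the highest value. No fold change is given for it.

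*Jun* (ENSMUSG00000052684, chromosome 4 from 94937271 to 94940459) encodes c-Jun, the main partner of c-Fos. It had normalised counts of 1108, 615 and 989 in WT and 577, 700 and 1035 in Pontin cTG hearts. The groups overlapped over nearly their whole ranges, and here Pontin cTG replicate 1 was the lowest library. The log2 fold change was -0.23 (SE 0.26).

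*Junb* (ENSMUSG00000052837, chromosome 8 from 85701113 to 85705347), whose product competes with c-Jun for the same partners, had 161, 231 and 202 normalised counts in WT and 393, 271 and 217 in Pontin cTG hearts. Only Pontin cTG replicate 3 lay inside the WT range. The means were 198.1 ± 35.3 and 293.2 ± 90.1 (SD, n = 3 each), with a log2 fold change of 0.56 (SE 0.23). *Junb* overlaps *Prdx2* on the opposite strand, which had 2971 to 4904 raw counts and a log2 fold change of 0.17 (SE 0.13). Whether reads were counted by strand is not given in the sources used here, so reads of the overlap may have gone to either gene.

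*Nr4a1* (ENSMUSG00000023034, chromosome 15 from 101152150 to 101172676) encodes NUR77, an orphan nuclear receptor. Its normalised counts of 144, 210 and 284 in WT and 384, 171 and 216 in Pontin cTG hearts overlapped, with Pontin cTG replicate 1 the highest and the other 2 inside the WT range. The log2 fold change was 0.27 (SE 0.32), and -0.13 without Pontin cTG replicate 1. A lncRNA on the same strand and *Junos*, antisense to *Jun*, overlap members too, with at most 5 and 10 raw counts a library.

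*Ier2* (ENSMUSG00000053560, chromosome 8 from 85387960 to 85389483) encodes a nuclear regulator of transcription, and it was the steadiest member. It had 183, 167 and 191 normalised counts in WT and 263, 260 and 233 in Pontin cTG hearts. The groups did not overlap, and within each genotype the hearts lay close together, 1.13-fold apart at most among Pontin cTG hearts. The means were 180.4 ± 12.2 and 252.0 ± 16.5 (SD, n = 3 each), with a log2 fold change of 0.48 (SE 0.13). *Ier2* and *Junb* lie 311.6 kb apart on chromosome 8.

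*Ier5* (ENSMUSG00000056708, chromosome 1 from 154972107 to 154975382), a relative of *Ier2* whose product takes part in the heat shock response, had 467, 412 and 603 normalised counts in WT and 356, 474 and 462 in Pontin cTG hearts. The groups overlapped, and Pontin cTG replicate 1 was the lowest library. The log2 fold change was -0.20 (SE 0.18).

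Of the 9 members tested, 7 had higher fitted values in Pontin cTG hearts and 2 (*Ier5* and *Jun*) lower, with a median log2 fold change of 0.53 against 0.0013 over all genes tested. By edgeR's quasi-likelihood test 0 members had an adjusted p under 0.05, as was so of 0% of all genes. At an unadjusted p under 0.05 there were 4 members (*Egr1*, *Ier2*, *Fos* and *Junb*), against 2.05% of all genes. DESeq2 called 0 members and had 4 at that unadjusted p, against 0.0072% and 1.38% of these genes, and limma-voom with sample quality weights called 1, *Egr1*, against 0.0216%. The groups did not overlap, with Pontin cTG higher, for 2 members (*Egr1* and *Ier2*), against 4.7% of all genes tested, and for 0 members with Pontin cTG lower, against 3.63%. Since *Egr1* was chosen by this contrast and the rest around it, nothing is read from these shares.

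The adjusted p of *Egr1* depended on the libraries kept and on the method. Without Pontin cTG replicate 2 its log2 fold change was 1.08 (edgeR adjusted p 0.0133). That library, apart on the first component, also had the lowest *Egr1* of its group (259 normalised counts, against 464 and 478). Leaving it out therefore raises the fold change. With all 6 libraries limma-voom with sample quality weights gave 1.03 (adjusted p 0.0212). *Egr1* was chosen by this contrast, so nothing is read from either adjusted p. Over the 14 alternatives the log2 fold change of *Egr1* ran from 0.70 to 1.08 and its adjusted p from 0.0133 to 0.9998. The direction was the same in all 14 for *Egr1*, *Ier2*, *Fos*, *Junb*, *Jun* and *Ier5*. For *Egr1* and *Ier2*, whose groups do not overlap, leaving out a library could hardly turn it. The alternatives that leave out no library refit the same 6 hearts. The direction turned for *Egr2*, *Egr3* and *Nr4a1* without Pontin cTG replicate 1 and under no other alternative.

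**Figure D2:**
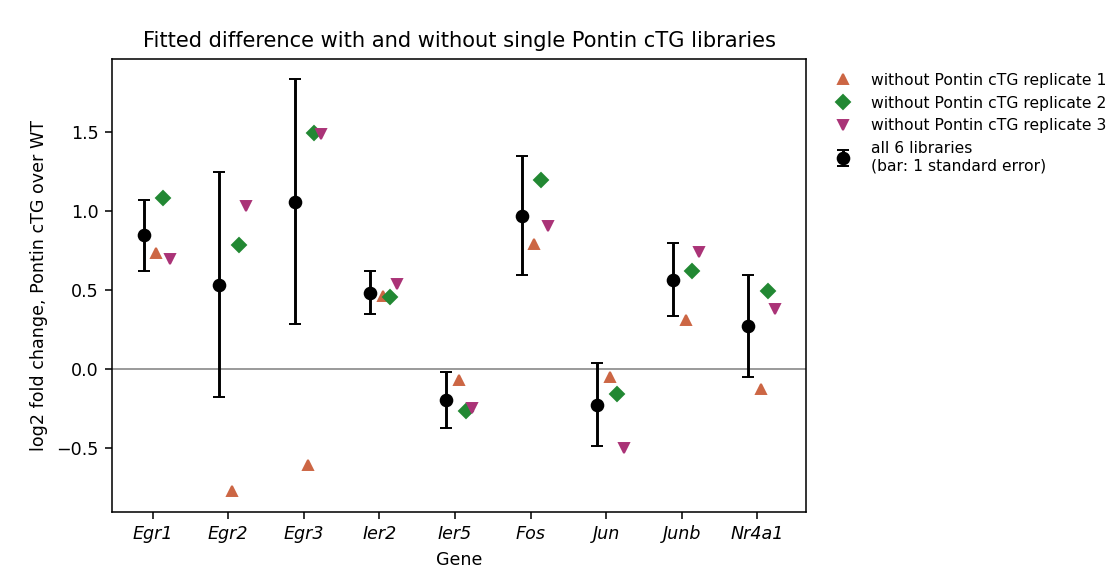
Log2 fold change (Pontin cTG over WT) of the 9 members tested, with all 6 libraries (black, bar 1 standard error) and with each Pontin cTG library left out in turn (coloured markers). *Egr1*, *Ier2*, *Fos* and *Junb* stay above 0 in each, whereas *Egr2*, *Egr3* and *Nr4a1* lie below 0 without Pontin cTG replicate 1. The groups of *Egr1* and *Ier2* do not overlap, so leaving out a library could hardly turn them.

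Hearts of the same genotype differed in these genes more than in most, by an SD that was not matched for expression level. The within-group SD of log2 CPM had a median of 0.44 over the 9 members and of 0.24 over all genes tested, and 8 of the 9 exceeded the latter. *Egr2* and *Egr3* lay at the 99.6th percentile of all genes, with an SD of 1.22 each. *Fos*, *Jun* and *Nr4a1* lay at percentiles 88.6, 82.3 and 89.5, *Junb* and *Egr1* at 73.0 and 72.1, and *Ier5* at 53.5. *Ier2*, with an SD of 0.0965, lay at the 7.4th percentile. This SD also holds counting noise, which is larger at low counts. *Egr2* had 11 to 118 raw counts a library and *Fos* 15 to 71, though *Jun* had 548 to 1195. The biological coefficient of variation estimated by edgeR had a median of 0.23 over the members tested and of 0.18 over all genes tested.

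In a step added after the data were seen, the same SD was taken without Pontin cTG replicate 1. Its median was then 0.36 over the members and 0.23 over all genes, with 7 of the 9 members above the latter. That of *Egr3* was 0.36 (percentile 74.2) and that of *Egr2* 0.72 (percentile 94.9). The members' median deviation from their own mean over the 6 libraries (log2) was 0.73 in Pontin cTG replicate 1, while it ran from -0.22 to -0.15 in WT and was -0.10 and 0.017 in Pontin cTG replicates 2 and 3. That library held the highest value of 7 of the 10 members and the lowest of *Ier5* and *Jun*. Without it the members' median log2 fold change was -0.052, with 4 of 9 higher, and the median over all genes was 0.0093. Leaving out Pontin cTG replicate 2 gave a median of 0.62.

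**Figure D3:**
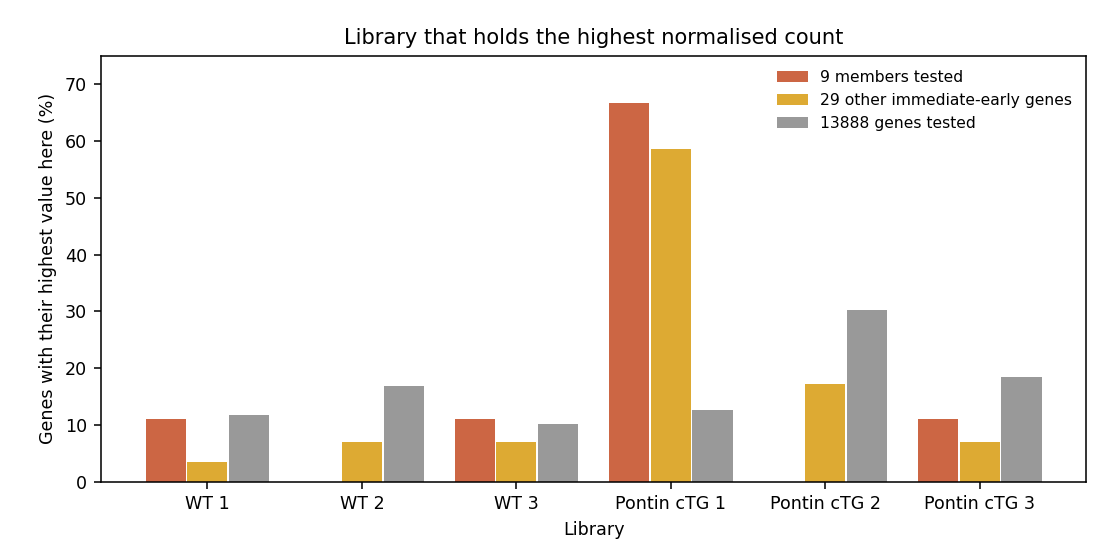
Share of genes (%) whose highest normalised count lies in each of the 6 libraries, for the 9 members tested, 29 other immediate-early genes and all 13888 genes tested. Pontin cTG replicate 1 holds the highest value of 66.7% of the members, 58.6% of the other immediate-early genes and 12.6% of all genes.

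Abundance per transcript length, as FPKM (fragments scaled to gene length and library size, from the counts and gene lengths in the table), allows the genes to be ranked. In WT the means were 20.1 ± 5.73 for *Jun*, 10.7 ± 2.13 for *Ier5* and 8.40 ± 0.568 for *Ier2* (SD, n = 3 each), and the libraries of these neighbours did not overlap. *Junb* (6.11), *Nr4a1* (4.30) and *Egr1* (3.53) followed, with *Nr4a1* overlapping both others. *Egr3* (0.908), *Fos* (0.854) and *Egr2* (0.745) were lower and did not differ beyond their spread, and *Fosb* (0.0504) was below them all. In Pontin cTG hearts *Jun* (17.2 ± 5.28), *Ier2* (11.7 ± 0.767) and *Ier5* (9.33 ± 1.40) came first without overlap between neighbours. From *Ier5* downwards each neighbour overlapped the next, through *Junb* (9.05), *Egr1* (6.34), *Nr4a1* (5.20), *Egr3* (1.91), *Fos* (1.68) and *Egr2* (1.09) to *Fosb* (0.113). *Ier2* thus passed *Ier5* in the order and *Egr1* passed *Nr4a1*. The 2 members with the highest FPKM in WT, *Jun* and *Ier5*, are the 2 with lower means in Pontin cTG hearts.

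Pontin cTG replicate 1 also stood out in immediate-early genes outside the members. Of 32 others, listed from general knowledge but with earlier results of these data known, 29 were tested. *Egr4*, *Npas4* and *Fosl1* did not pass the filter on low counts. Their median log2 fold change was 0.11, with 18 higher and 11 lower. By edgeR and DESeq2 0 were called, against 0% and 0.0072% of all genes. At an unadjusted p under 0.05 each had 2, against 2.05% and 1.38%. That library held the highest value of 17 of the 29 (58.6%), against 1755 of 13888 genes tested (12.6%), and without it the median was -0.078. *Sik1*, a CREB-induced kinase, had 832 normalised counts in that library and 249 to 445 in the other 5. *Errfi1*, a feedback inhibitor of the EGF receptor, had 975 there and 240 to 389 elsewhere. These 2 genes were picked after their values were seen.

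The other immediate-early genes with the highest fold changes were *Nfkbiz*, an atypical IκB protein, and *Gadd45b*, a stress sensor. *Gadd45b* had 55.1, 95.4 and 93.9 normalised counts in WT and 145, 122 and 122 in Pontin cTG hearts (log2 fold change 0.67, SE 0.24). Among the 29 tested it was the only gene whose groups did not overlap. Of all genes tested, 4.7% did not overlap with Pontin cTG higher and 3.63% with it lower. *Nfkbiz* overlapped, with 30.8, 77.4 and 31.3 in WT and 71.3, 130 and 34.7 in Pontin cTG hearts (0.76, SE 0.51). *Dusp1*, which encodes a phosphatase that inactivates MAP kinases and was with *Gadd45b* the other gene at an unadjusted p under 0.05, had 580, 550 and 762 in WT and 909, 697 and 929 in Pontin cTG hearts (0.42, SE 0.17). The lowest were *Nr4a2*, a nuclear receptor related to *Nr4a1* (-0.46, SE 0.38), and *Atf3*, a stress-induced repressor (-0.43, SE 0.21). *Atf3* had 143, 160 and 160 in WT and 150, 102 and 91.8 in Pontin cTG hearts, with Pontin cTG replicate 1 the highest of that genotype.

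**Figure D4:**
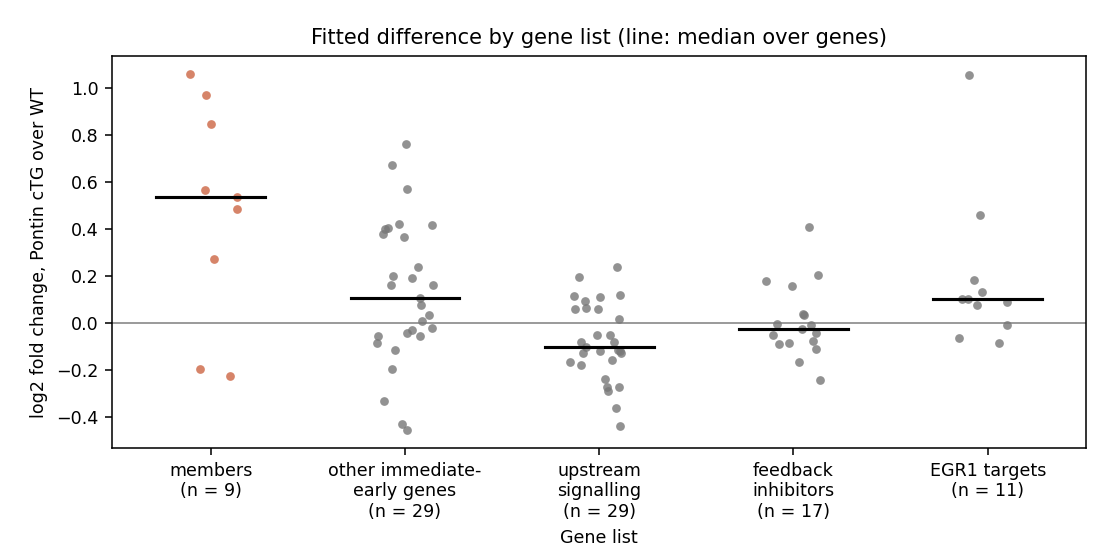
Log2 fold change (Pontin cTG over WT) of each tested gene of 5 lists, the line marking the median over genes. The medians are 0.53 for the 9 members, 0.11 for 29 other immediate-early genes, -0.10 for 29 upstream signalling genes, -0.027 for 17 feedback inhibitors and 0.10 for 11 EGR1 targets.

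Genes of the pathways that switch immediate-early genes on were listed separately. They cover the ERK cascade, serum response factor with its partners and CREB, other MAP kinases, the *Mef2* genes and the Ang-II receptor gene *Agtr1a*. All 29 were tested, 10 higher and 19 lower, with a median log2 fold change of -0.10. By edgeR and DESeq2 0 were called, against 0% and 0.0072% of all genes. At an unadjusted p under 0.05 each had 1, against 2.05% and 1.38%. Pontin cTG replicate 1 held the highest value of 2 of the 29. The gene at that p was *Braf*, a kinase of the ERK cascade. It had 348, 332 and 347 normalised counts in WT and 285, 276 and 237 in Pontin cTG hearts (-0.36, SE 0.13). Its groups did not overlap. With Pontin cTG lower this was so of 2 of the 29, against 3.63% of all genes tested, and with Pontin cTG higher of 0, against 4.7%. *Myocd*, the cardiac partner of serum response factor, was lowest (-0.44, SE 0.32), and its 350 counts in Pontin cTG replicate 2 were below the 707 to 1089 of the other libraries. The highest were the kinase gene *Map2k2* (0.24, SE 0.13) and *Crtc2*, a CREB coactivator (0.20, SE 0.20).

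Feedback inhibitors, which end the response by dephosphorylating MAP kinases, blocking the ERK cascade or binding EGR and AP-1 proteins, had a median log2 fold change of -0.027. All 17 were tested, 6 higher and 11 lower. By edgeR and DESeq2 0 were called, against 0% and 0.0072% of all genes, and 0 were at an unadjusted p under 0.05. Of all genes, 2.05% and 1.38% were at that p. The highest were *Jdp2*, a repressor of AP-1, with 66.1, 94.2 and 117 normalised counts in WT and 182, 105 and 82.3 in Pontin cTG hearts (0.41, SE 0.32), and *Spry4*, an inhibitor of receptor tyrosine kinase signalling (0.20, SE 0.23). The lowest were the phosphatase genes *Dusp4* (-0.24, SE 0.34) and *Dusp16* (-0.17, SE 0.19). Pontin cTG replicate 1 held the highest value of 6 of the 17, *Jdp2* and *Spry4* among them.

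Listed targets of EGR1 cover growth factors, adhesion receptors and matrix proteins. Of 11 tested, 8 were higher and 3 lower, with a median log2 fold change of 0.10. By edgeR and DESeq2 0 were called, against 0% and 0.0072% of all genes. At an unadjusted p under 0.05 each had 0, against 2.05% and 1.38%. *Thbs1*, which encodes the matrix protein thrombospondin 1, had 454, 626 and 520 normalised counts in WT and 2694, 435 and 197 in Pontin cTG hearts (1.05, SE 0.80). Its high library, Pontin cTG replicate 1, was the same as that of *Egr2* and *Egr3*, and its lowest, Pontin cTG replicate 3, was the one in which *Egr1* was highest. The targets did not share that library: Pontin cTG replicate 1 held the highest value of 3 of the 11 and Pontin cTG replicate 2 of 5. Of all genes tested these libraries held the highest value of 12.6% and 30.2%. *Icam1*, an adhesion receptor for leukocytes, had 147, 181 and 139 in WT and 327, 190 and 124 in Pontin cTG hearts (0.46, SE 0.31). The lowest was the hyaluronan receptor gene *Cd44* (-0.08, SE 0.22).

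Markers of other cell types were summed in each library beside these genes. The neutrophil sum ran from 3.30 to 53.8 normalised counts in WT and was 91.8, 6.85 and 31.2 in Pontin cTG replicates 1 to 3, with *Ly6g* at 0 in all libraries. It was thus highest in the library with the high *Egr2* and *Egr3*. Pontin cTG replicate 3, with 31.2, had the lowest *Egr2* (9.53). WT replicate 2, with 53.8, had 48.2 for *Egr2*, the highest of WT, and 56.1 for *Egr3*. Endothelial sums were 12210 to 13590 in WT and 10480 to 14760 in the transgenic hearts, fibroblast sums 10740 to 16240 and 10760 to 15750, and smooth muscle sums 2851 to 3582 and 3117 to 3426. Macrophage sums were 2261 to 3693 and, in Pontin cTG hearts, 1658 to 2424, platelet sums 217 to 417 and 200 to 305, and erythroid sums 11630 to 19050 and 10420 to 18330. Schwann cell sums were 57.0 to 75.2 and 43.0 to 110.5, while lymphocyte and adipocyte sums did not exceed 23.1 and 6.83. In Pontin cTG replicate 1 the endothelial, fibroblast and smooth muscle sums were 11910, 12070 and 3273, inside the range of the other 5 libraries. That library had the lowest Schwann cell and lymphocyte sums of the 6 (43.0 and 3.91) and, with the neutrophil sum, the highest adipocyte sum (6.83). The part of any cell type in the members' values was not tested.

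Genes whose profile was most like that of *Egr1* were found by the root-mean-square difference of centred log2 CPM over the 6 libraries, which had a median of 0.534 over all tested genes outside the members. The 5 with the smallest difference were *C530005A16Rik* (0.211), *Gm17828* (0.217), *Wnt9b* (0.222), *Hipk4* (0.227) and *Fam177a2* (0.231). Among them *Fam177a2* had the most counts, 96.9, 81.9 and 87.2 normalised counts in WT and 145, 99.3 and 131 in Pontin cTG hearts. Of the members, *Fos* was nearest to *Egr1* (0.338), followed by *Ier2* (0.359), *Junb* (0.404) and *Nr4a1* (0.463). *Ier5* (0.638), *Jun* (0.668), *Egr3* (0.917) and *Egr2* (1.11) lay above the all-gene median. The paralogues of *Egr1* were thus furthest from it by this measure. It grows with the size of a gene's differences between hearts as well as with their pattern, and the pattern alone was not compared.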

How the data were processed

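RNA was extracted with Trizol from 3 Pontin cTG and 3 WT hearts and sequenced as paired-end libraries. The values used are gene-level read counts, which the authors deposited as whole numbers with no normalisation. The study's methods name Trimmomatic, STAR, mm10 and Gencode M25, whereas the submitters' processing notes name fastp, HISAT2, featureCounts and GRCm39. The coordinates in the table are those of GRCm39, and they, with the gene lengths used for FPKM, are the authors' annotation columns. An outlier excluded in the study is not named, and all 6 libraries were used.

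Genes were kept with filterByExpr (minimum count 10, 13888 genes) and tested with the quasi-likelihood method of edgeR 4.0.16 in R 4.3.3 (TMM factors, genotype only, two-sided, Benjamini-Hochberg adjustment over all genes). Alternatives were DESeq2 1.42.0, its size factors in edgeR, library size alone, limma 3.58.1 (voom with sample quality weights), no filter, 10 counts in every library, no mitochondrial genes, a replicate block and each library left out. The code was tested on simulated data, in which edgeR recovered most but not all of the 2-fold changes and made 16 false calls. DESeq2 made 38 false calls there. Depth limits *Fosb* most. Between any 2 libraries the smallest chi-square per gene was 5.62, so none was treated as a repeat.

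Deviations of same-numbered libraries correlated at 0.077, 0.43 and 0.19, and although the WT mice were littermates, no source ties a litter or batch to the replicate numbers, so libraries were treated as unpaired. The members, gene lists and markers were chosen with earlier results of these data known. All members are named, with, from each other list, genes past an adjusted p of 0.05, the 2 highest and 2 lowest log2 fold changes, and the 5 profiles most like *Egr1*. *Dusp1*, *Sik1* and *Errfi1* were named after their values were seen. One gene that the rule names is not reported here. Promoter motifs and gene structure were chosen at the end, with results known. Genome positions of promoters are in GRCm38.p6 and were not mixed with those of the table.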

Additional observations from a re-analysis of the deposited data

How the results depend on the processing

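With edgeR 0 genes were called (285 at an unadjusted p under 0.05), against 1 with DESeq2 (217 at that p), 3 with limma-voom and sample quality weights (810) and 3 with no filter on low counts. With 1 library left out, 0 to 3 genes were called, the 3 without Pontin cTG replicate 2. In the same way the members' median log2 fold change ran from -0.052, without Pontin cTG replicate 1, up to 0.70, without Pontin cTG replicate 3, and it was 0.72 with limma-voom and all libraries. Members whose groups do not overlap were 2 to 4 of 10 with a library left out, the 4 without WT replicate 2, where 16.4% of all genes tested did not overlap. That share ran from 13.2% to 21.5% over the 6 libraries left out and was 8.33% with all libraries. Leaving out Pontin cTG replicate 1 reversed *Egr2* (-0.78), *Egr3* (-0.61) and *Nr4a1* (-0.13). Over all single libraries left out, *Egr2* ran up to 1.03, *Egr3* to 1.49 and *Nr4a1* to 0.54. The median of the other immediate-early genes ran from -0.078 to 0.23 in the same way. With the replicate block 0 genes were called, 499 had an unadjusted p under 0.05, and the members' median was 0.48. Replicate numbers were not shown to pair the hearts, since 2 of 6 libraries correlated best with their own number, and the block changed no call on the members. Scaling alternatives moved the median of all genes to 0.031 at most. Counts limit *Fosb*, at 1 to 19 reads a library, and then *Egr2* and *Fos*. Causes of these changes were not tested.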
